A study of Homo sapiens with 105 samples.

Results

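The lipopeptides MALP2 and Pam3CSK4, which act through the same receptor, were compared directly with each other in human vaginal epithelial cells. The comparison used the 12 arrays titled as MALP-treated or PAM-treated, 6 for each lipopeptide, of 105 arrays in the series. Every probeset on the array took part except the Affymetrix control probesets, which left 54613 of 54675.

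The cells were Vk2/E6E7, a line of human vaginal epithelial cells immortalized with papillomavirus genes, and total RNA was measured on Affymetrix U133 Plus 2.0 arrays. The study set pro-inflammatory compounds (PICs) beside non-inflammatory compounds (NICs) to find genes that tell them apart. MALP2 (macrophage activating lipopeptide 2) was given at 200 ng/ml and Pam3CSK4 at 10 μg/ml, each for 6 h. Growth medium alone (GM), with 53 of its 54 arrays used, was the untreated control. As both groups come from 1 immortalized line in culture, no other cell type of the vaginal wall was present by design. The amount of Pam3CSK4 was 50 times that of MALP2 by mass, so the identity of the lipopeptide and its dose cannot be told apart in any difference given here. The labels call the arrays biological replicates and the study speaks of experiments or microarrays, but separate cultures are not named, so the spread between arrays behind the p-values may be in part technical.

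TLR2 is a cell surface receptor for bacterial lipoproteins. It does not act alone: with TLR6 it recognizes diacylated lipopeptides such as MALP2, a lipopeptide of mycoplasma, and with TLR1 it recognizes triacylated ones such as the synthetic Pam3CSK4. Both pairs signal through the adaptor MYD88 to NFκB and MAP kinases and so raise chemokines, cytokines and antimicrobial proteins in epithelia.

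Levels are log2 signals after quantile normalization, so that a difference of 1 is a fold change of 2. A probeset was called when its adjusted p (limma, Benjamini-Hochberg) was under 0.05 and its fold change was over 2, and group means under 6 are described as dim. Passing the test means an adjusted p under 0.05 alone. Where a call is said to be kept, held, lost or ended, only that adjusted p was applied. The arrays of each group fell into 2 sets by replicate number, 1 to 3 and 4 to 6, and within a group the deviations of arrays of different sets from the group mean correlated at -0.37 to -0.30, against -0.07 to 0.06 for arrays of the same set. The labels do not say what these sets are. Across the 2 groups, deviations from the group mean correlated at 0.04 to 0.13 for the same set number and at -0.12 to -0.04 for different ones. The sets were therefore also fitted as a random block (correlation within sets 0.44), and that value is given with the leading results. Each set of each group was a block of its own, so this fit does not remove a shift that both groups share. With only 2 sets per group this block leaves few independent units, and differences within each set are given as well.

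The direct comparison of MALP2 with Pam3CSK4 singled out a small group of genes, led by the chemokine gene CCL4 and the maltase gene MGAM. Of 54613 probesets, 64 were called (0.117%), 30 higher with MALP2 (0.0549%) and 34 higher with Pam3CSK4 (0.0623%). At an adjusted p under 0.05 alone the count was 114 (0.209%), and at an unadjusted p under 0.05 it was 3988 (7.3%). The 64 called probesets named 50 genes, 25 in each direction, while 5 had no gene name in the annotation and 2 named several genes. In 55 of the 64 the 6 arrays of one lipopeptide did not overlap with the 6 of the other, where 1.29% of all probesets had every MALP2 array on top and 1.28% every Pam3CSK4 array. All 64 differed in the same direction in both sets of arrays. As they were called on both sets together, that shared direction is not independent support. With the sets as a block 14 of the 64 kept an adjusted p under 0.05. Without Pam3CSK4 replicate 5, MALP2 replicate 1 or MALP2 replicate 2 the count of calls was 34, 40 and 41. The median difference over all probesets was 0.01, and for 25422 probesets (46.5%) the 95% interval of the difference lay within 1 on the log2 scale on either side of 0. The actin and GAPDH genes did not pass the test, with differences of -0.03 (95% interval -0.17 to 0.12) for ACTB and 0.06 (-0.13 to 0.26) for GAPDH. As a sign of RNA quality, the GAPDH signal of the 3′ probeset minus that of the 5′ probeset was 0.08 ± 0.17 (SD, n = 6) with MALP2 and -0.17 ± 0.09 (n = 6) with Pam3CSK4 (exact permutation test, two-sided p = 0.013, 0.026 adjusted over 2 genes), and that of ACTB was 0.49 ± 0.34 and 0.33 ± 0.11 (p = 0.36, adjusted 0.36). The part of this difference in the results was not tested.

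CCL4, also known as MIP-1β, is a chemokine that attracts monocytes and T cells. Its log2 level was lowest at 6.52, in the middle at 8.01 and highest at 8.69 over the 6 MALP2 arrays. Over the Pam3CSK4 arrays it was 3.25, 4.44 and 4.88, and in GM 3.20 ± 0.47 (SD, n = 53). Every MALP2 array therefore lay above every Pam3CSK4 array, and the Pam3CSK4 arrays were dim. The difference was 3.52 (SE 0.34, 11.5-fold, adjusted p = 1.2e-12), with 3.01 in replicates 1 to 3 and 4.03 in replicates 4 to 6. With the sets as a block the adjusted p was 1.4e-05. Against GM, MALP2 was higher by 4.57 (adjusted p = 5.4e-28) and Pam3CSK4 by 1.04 (adjusted p = 0.0096), of which the second lost its call with the sets as a block (adjusted p = 0.33).

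MGAM encodes maltase-glucoamylase, a brush border enzyme of starch digestion. With MALP2 its level ran from 6.57 through a median of 7.57 to 8.63, and with Pam3CSK4 from 2.28 through 2.90 to 5.05, beside 2.51 ± 0.80 in GM. The groups did not overlap. The difference of 4.18 (SE 0.50, 18.1-fold, adjusted p = 1.8e-08) was measured against a dim Pam3CSK4 level. It was 4.67 in replicates 1 to 3 and 3.68 in replicates 4 to 6, and the adjusted p with the sets as a block was 0.0048. MGAM rose with MALP2 over GM (5.06, adjusted p = 4.2e-20), while Pam3CSK4 differed from GM by 0.88 (adjusted p = 0.27). As with CCL4, the exact fold change therefore rests on signals near the background. An offset of 16 added to the signals, which damps dim values, lowered the differences to 2.73 for CCL4 and 2.87 for MGAM with both still past the threshold.

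ISG20 is an interferon-induced exonuclease that degrades RNA, among others that of viruses. Its level was 10.52, 11.71 and 12.88 (lowest, median and highest) with MALP2, and 8.93, 9.59 and 10.15 with Pam3CSK4, against 9.41 ± 0.61 in GM. The groups did not overlap, but the sets stood apart within each: MALP2 arrays were at 12.63 to 12.88 in replicates 1 to 3 and at 10.52 to 10.77 in replicates 4 to 6. The difference was 2.15 (SE 0.39, 4.43-fold, adjusted p = 0.00098), and 0.0083 was the adjusted p with the sets as a block. It was 2.66 in replicates 1 to 3 and 1.64 in replicates 4 to 6, and these last arrays alone did not pass the test (adjusted p = 0.57). MALP2 was above GM by 2.29 (adjusted p = 3.1e-09) and Pam3CSK4 by 0.14 (adjusted p = 0.91). A further ISG20 probeset differed by 2.79 and did not pass the test (adjusted p = 0.094).

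EDN1 encodes the precursor of endothelin-1, a peptide that constricts vessels and is also made by epithelia. It was bright with both lipopeptides, at 11.68, 12.70 and 13.58 with MALP2 and at 9.83, 10.33 and 11.00 with Pam3CSK4, and at 8.85 ± 0.68 in GM. Pam3CSK4 thus took an intermediate place, 1.53 above GM (adjusted p = 0.0069), and MALP2 was 3.81 above GM (adjusted p = 1.4e-14). The groups did not overlap. The difference between them was 2.28 (SE 0.48, 4.87-fold, adjusted p = 0.011), and it missed the threshold with the sets as a block (adjusted p = 0.081). Of 3 EDN1 probesets, the other 2 differed by 1.74 and 1.03 in the same direction without passing the test.

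**Figure D1:**
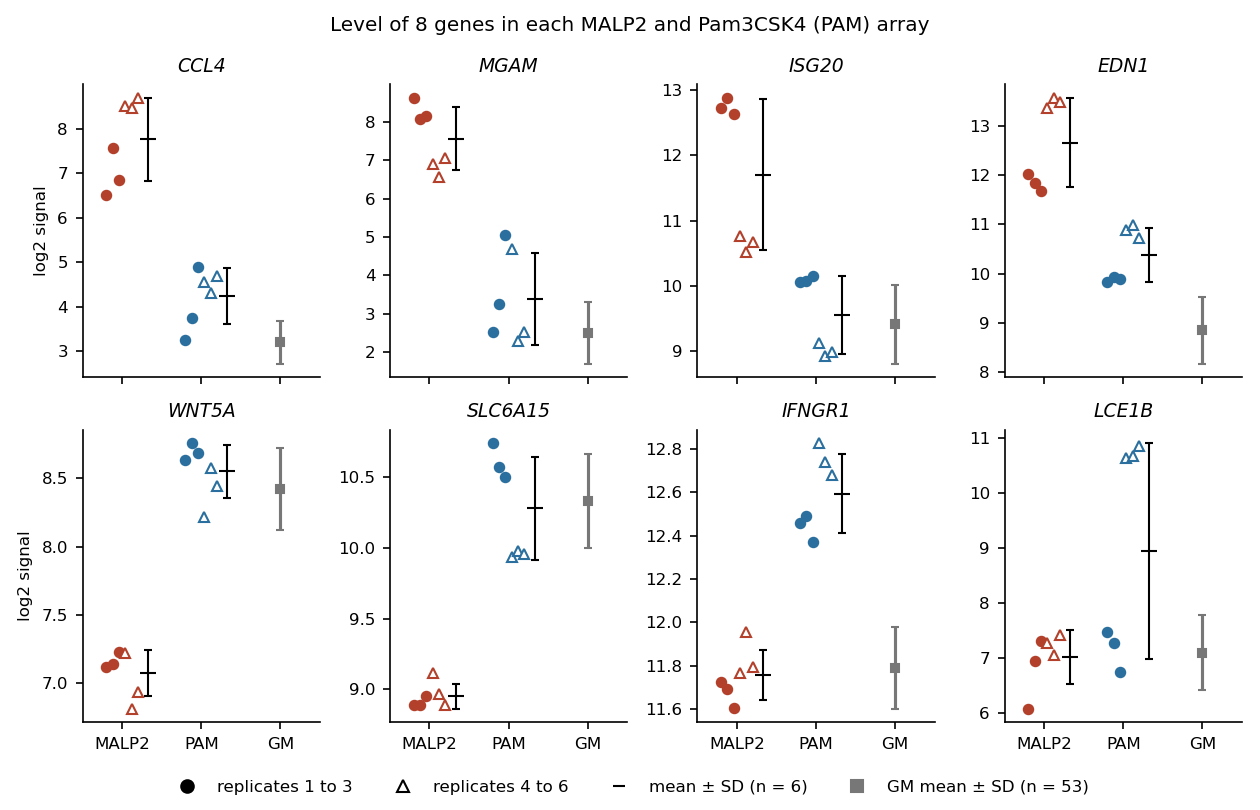
Log2 signal of 8 genes in each MALP2 and Pam3CSK4 (PAM) array, with circles for replicates 1 to 3, triangles for replicates 4 to 6, black bars for the mean ± SD of 6 arrays and a grey square for the mean ± SD of 53 GM arrays (each panel has its own scale). CCL4, MGAM, ISG20 and EDN1 lie higher with MALP2, WNT5A and SLC6A15 lie lower with MALP2 than with PAM or GM, and IFNGR1 lies higher with PAM, while LCE1B does so in replicates 4 to 6 (10.6 to 10.9) and not in replicates 1 to 3 (6.7 to 7.5).

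The cytokine receptors IL13RA2, IL1R2 and IL1RL1 were among the genes higher with MALP2, and as no list of such receptors was fixed, nothing follows for them as a group. IL13RA2, a decoy receptor that binds IL-13 without signalling as the main receptor does, was at 9.17 to 10.15 (median 9.82) with MALP2 and at 3.64 to 7.26 (median 5.89) with Pam3CSK4, with no overlap (difference 4.06, SE 0.90, adjusted p = 0.019). In GM it was at 4.53 ± 1.47. IL1R2, the decoy receptor for IL-1, was at 11.52 to 12.42 (median 11.98) with MALP2 and at 8.62 to 9.73 (median 9.32) with Pam3CSK4, again with no overlap (difference 2.77, SE 0.65, adjusted p = 0.031), and both were above its GM level of 6.24 ± 1.28 (adjusted p = 4.2e-17 and 1.3e-05). The other IL1R2 probeset differed by 2.23 with no overlap and did not pass the test (adjusted p = 0.18). IL1RL1, also called ST2, is the receptor for the alarmin IL-33 and exists in a soluble form. Its level of 9.51 to 10.66 (median 10.06) with MALP2 lay above the 7.14 to 8.51 (median 8.04) with Pam3CSK4, whose level was near that of GM (8.10 ± 1.09). The difference was 2.10 (SE 0.51, adjusted p = 0.041), and 3 further IL1RL1 probesets differed by -0.20 to 0.38. These 3 receptors had a larger difference in replicates 4 to 6 (5.29, 2.92 and 2.88, in the order given) than in replicates 1 to 3 (2.83, 2.62 and 1.31). None kept the call with the sets as a block (adjusted p = 0.53, 0.66 and 0.30). Leaving out single arrays also ended the calls, for IL13RA2 without Pam3CSK4 replicate 5 or 6 (adjusted p up to 0.080), for IL1R2 in 9 of 12 such fits (up to 0.091) and for IL1RL1 in 11 of 12 (up to 0.12).

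The other genes with the largest differences toward MALP2 had varied roles. KRT33A, a keratin of hair, was at 6.21, 8.08 and 9.64 with MALP2 and at 2.40, 4.38 and 6.70 with Pam3CSK4. Its groups overlapped and each was widely spread (SD 1.51 and 1.90), yet the difference of 3.64 (SE 0.57, adjusted p = 4.5e-05) held with the sets as a block (adjusted p = 0.0036). The KRT33A probeset belongs to the type (suffix _x_at) whose probes can also match related genes. C1orf74 was above its GM level of 9.53 ± 0.32 with both lipopeptides, at 12.01 ± 0.36 with MALP2 and 10.27 ± 0.75 with Pam3CSK4 (SD, n = 6). With Pam3CSK4 it was at 10.88 to 10.99 in replicates 1 to 3 and near the GM level (9.48 to 9.75) in replicates 4 to 6. The dimmer C1orf74 probeset did not pass the test for Pam3CSK4 against GM (adjusted p = 0.31). The 2 C1orf74 probesets differed by 1.74 (adjusted p = 4.3e-08, and 1.4e-05 with the block) and 1.17 (adjusted p = 0.020, and 0.27 with the block). GANC, a neutral alpha-glucosidase and thus an enzyme related to MGAM, differed by 1.54 (SE 0.36, adjusted p = 0.026), the zinc finger gene ZNF611 by 1.45 (SE 0.33, adjusted p = 0.022) and WFDC21P, a pseudogene that gives a long noncoding RNA, by 2.21 (SE 0.54, adjusted p = 0.0495). For GANC, ZNF611 and WFDC21P the arrays did not overlap, but the adjusted p with the sets as a block was 0.27, 0.61 and 0.48. The other 2 GANC probesets differed by 0.61 and 0.55 without passing the test. In fits that left out 1 array the calls of GANC, ZNF611 and WFDC21P were kept in 5, 7 and 2 of 12.

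TIMP1, an inhibitor of matrix metalloproteinases and one of the brightest genes here, was at 14.05 to 14.51 (median 14.24) with MALP2 and at 12.86 to 13.54 (median 13.19) with Pam3CSK4, whose level was that of GM (13.16 ± 0.30). The difference of 1.05 (SE 0.20, adjusted p = 0.0023) kept the call with the sets as a block (adjusted p = 0.013). SPRY2, a feedback inhibitor of receptor tyrosine kinase signalling, differed by 0.99 (SE 0.22, adjusted p = 0.016, and 0.27 with the block). Named after their values were seen, PLAUR, the receptor of the plasminogen activator urokinase, MARCKSL1, a membrane-bound regulator of actin, and ALAS1, the first enzyme of heme synthesis, were also called and kept the call with the sets as a block. The called PLAUR probeset was at 10.36 to 10.97 with MALP2 and 9.07 to 9.33 with Pam3CSK4 (difference 1.44, adjusted p = 0.00086), but 2 further PLAUR probesets differed by 1.31 and 1.69 without passing the test (adjusted p = 0.15 and 0.071). MARCKSL1 differed by 1.34 (adjusted p = 0.00017) and ALAS1 by 1.09 (adjusted p = 0.00087).

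**Figure D2:**
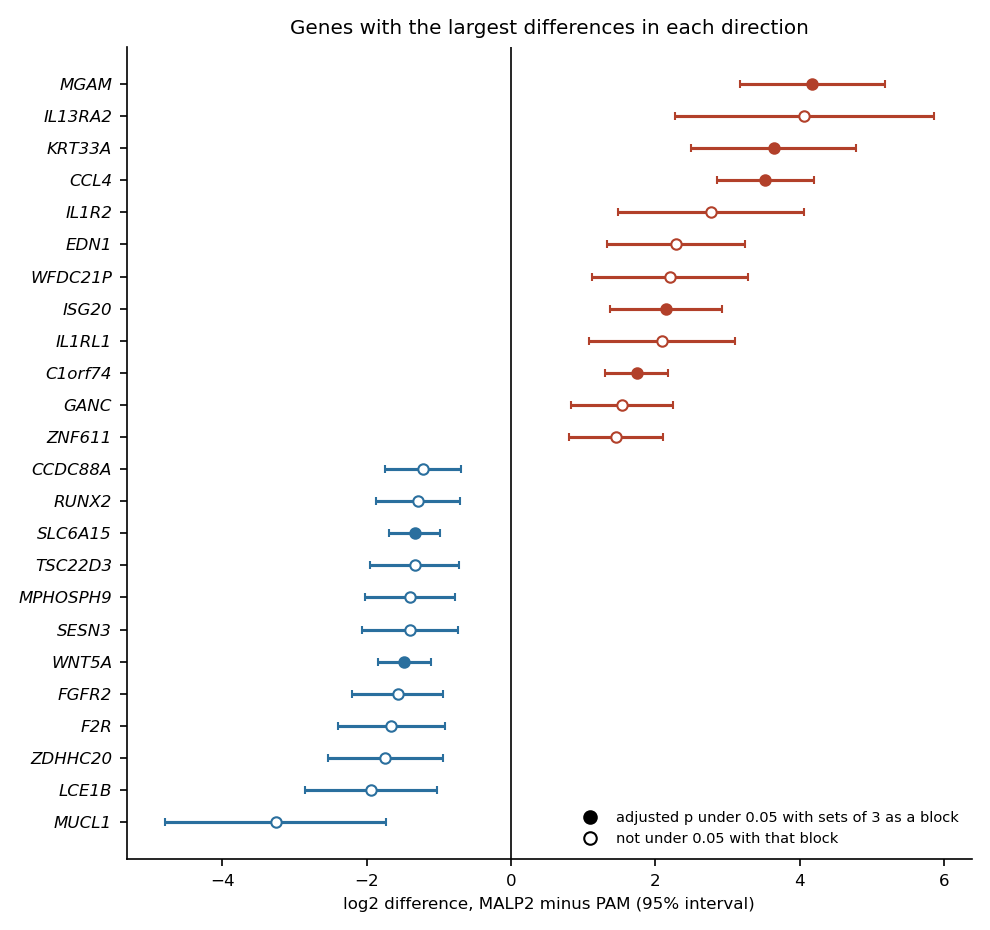
Difference in log2 signal, MALP2 minus Pam3CSK4 (PAM), with its 95% interval, for the 12 genes with the largest differences in each direction among those with an adjusted p under 0.05 and a higher group mean of at least 7. Filled points, 5 above and 2 below 0, kept an adjusted p under 0.05 with the sets of 3 arrays as a block.

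Genes higher with Pam3CSK4 were of 2 kinds when GM was taken into account: most stood at the GM level with Pam3CSK4 and below it with MALP2, and a few stood above GM with Pam3CSK4 and not with MALP2. The 3 comparisons share their samples, so the counts that follow describe the members and are not independent. Of the 60 probesets at an adjusted p under 0.05 that were higher with Pam3CSK4, 51 were below GM with MALP2 at that threshold (3.66% of all probesets were), and 8 were above GM with Pam3CSK4 (1.31% of all). With the sets as a block these counts were 38 and 4. A single one of the 60, APEX1, a DNA repair enzyme, was below GM with Pam3CSK4 (0.859% of all), and it lost that call with the block. Of the 54 that were higher with MALP2, all 54 were above GM with MALP2 (3.28% of all) and 10 were above GM with Pam3CSK4, or 52 and 6 with the block.

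WNT5A, a secreted Wnt ligand that acts mainly outside the β-catenin pathway, was of the first kind. Its level was 6.81, 7.13 and 7.23 (lowest, median and highest) with MALP2 and 8.22, 8.61 and 8.76 with Pam3CSK4, beside 8.42 ± 0.30 in GM. The groups did not overlap, and the difference was nearly the same in replicates 1 to 3 (-1.53) and 4 to 6 (-1.42). It was -1.48 over all 12 arrays (SE 0.18, adjusted p = 4.3e-08, and 1.4e-05 with the sets as a block). The other WNT5A probeset differed by -1.54 (adjusted p = 0.00021, and 0.089 with the block).

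SLC6A15, a transporter of neutral amino acids, was at 8.89 to 9.11 (median 8.92) with MALP2 and at 9.93 to 10.74 (median 10.24) with Pam3CSK4, which was the GM level (10.33 ± 0.33). The difference was -1.33 (SE 0.18, adjusted p = 4.2e-07, and 0.00012 with the block). The other 4 of 5 SLC6A15 probesets, one of them as bright (9.98 and 10.28), differed by -0.90 to -0.30 with overlap and did not pass the test. Noted after the values were seen, 2 further neutral amino acid transporters were higher with Pam3CSK4 in several probesets. All 3 probesets of SLC38A2 passed the test, with differences of -1.06 to -0.81, and 3 of 5 probesets of SLC1A4 did, with differences of -1.63 to -1.14. SLC38A2 and SLC1A4 were below GM with MALP2 in each of these 6 probesets (adjusted p at most 0.045), and Pam3CSK4 did not pass the test against GM in any of them. With the sets as a block 2 of the SLC38A2 probesets kept the call and the SLC1A4 probesets did not (adjusted p 0.088 to 0.19). No set of transporters was listed for a test, so nothing follows for transporters as a group.

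The other genes with the largest differences toward Pam3CSK4 had varied roles. FGFR2, a receptor of fibroblast growth factors, differed by -1.57 (SE 0.32, adjusted p = 0.0054), with -2.64 in replicates 1 to 3 and -0.50 in replicates 4 to 6. F2R, the thrombin receptor PAR1, was at 6.09 to 7.80 with MALP2 and at 8.29 to 8.83 with Pam3CSK4, against 9.12 ± 0.56 in GM (difference -1.66, SE 0.37, adjusted p = 0.022). The F2R probeset is also of the _x_at type, and the other F2R probeset, at 9.23 with MALP2 and 8.73 with Pam3CSK4, differed by 0.50 in the opposite direction without passing the test (adjusted p = 0.90). RUNX2, a transcription factor of bone formation, differed by -1.29 (adjusted p = 0.023), SESN3, a stress-induced sestrin, by -1.40 (adjusted p = 0.036), and TSC22D3, the glucocorticoid-induced leucine zipper protein GILZ, by -1.34 (adjusted p = 0.029). MPHOSPH9, an M-phase phosphoprotein, differed by -1.40 (adjusted p = 0.021) and CCDC88A, the actin-binding protein girdin, by -1.22 (adjusted p = 0.015). Each of these 7 genes has other probesets, none of which passed. Differences of these others ran from -0.92 to 0.72 for FGFR2 (11 probesets in all) and from -0.52 to 0.57 for RUNX2 (6 in all). They ran from -0.95 to 0.62 for CCDC88A (6 in all) and from -1.17 to 0.13 for SESN3 (7 in all). With the called probeset included, differences were below 0 in all 4 of MPHOSPH9 and all 3 of TSC22D3. In the probesets that passed, the 7 genes did not overlap between the groups, were below GM with MALP2, did not pass the test against GM with Pam3CSK4, and lost the call with the sets as a block (adjusted p 0.18 to 0.70). A dim probeset of ZDHHC20, a palmitoyltransferase, was at 2.63 to 6.96 with MALP2 and differed by -3.17 in replicates 1 to 3 but by -0.30 in replicates 4 to 6 (-1.74 over both sets, adjusted p = 0.025, and 0.47 with the block). The brighter ZDHHC20 probeset, at 10.59 with MALP2 and 10.81 with Pam3CSK4, differed by -0.22 with overlap (adjusted p = 0.95). Leaving out 1 array ended the call of each of these 8 genes in at least 1 fit, with adjusted p up to 0.35 for ZDHHC20, 0.15 for CCDC88A and 0.071 for FGFR2 (without MALP2 replicate 3).

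IFNGR1, LCE1B and MUCL1 rose with Pam3CSK4 over GM, although MUCL1 lost that call with the sets as a block (adjusted p = 0.067). IFNGR1 is the ligand-binding chain of the interferon-γ receptor. Its brightest probeset was at 11.61, 11.75 and 11.96 with MALP2 and at 12.37, 12.58 and 12.83 with Pam3CSK4, and GM was at 11.79 ± 0.19. The MALP2 arrays were thus at the GM level (difference from GM -0.03, adjusted p = 0.91) and every Pam3CSK4 array lay above them (0.81 above GM, adjusted p = 2.1e-10). MALP2 and Pam3CSK4 differed by -0.84 (SE 0.12, adjusted p = 5.0e-06, and 0.00062 with the block). A second IFNGR1 probeset differed by -1.18 (adjusted p = 7.6e-07, and 0.0012 with the block) and the last of 3 by -0.65 without passing the test. LCE1B, a protein of the late cornified envelope, was higher with Pam3CSK4 by 3.48 in replicates 4 to 6 and by only 0.39 in replicates 1 to 3 (-1.93 over both sets, SE 0.46, adjusted p = 0.034, and 0.49 with the block). The small secreted mucin-like gene MUCL1 was dim with MALP2 (3.66 to 6.13) and at 4.73 to 10.26 with Pam3CSK4 (difference -3.26, SE 0.77, adjusted p = 0.033, and 0.49 with the block). The LCE1B and MUCL1 groups overlapped, and their calls were kept in 6 and 4 of the 12 fits that left out 1 array (adjusted p up to 0.21 and 0.18).

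**Figure D3:**
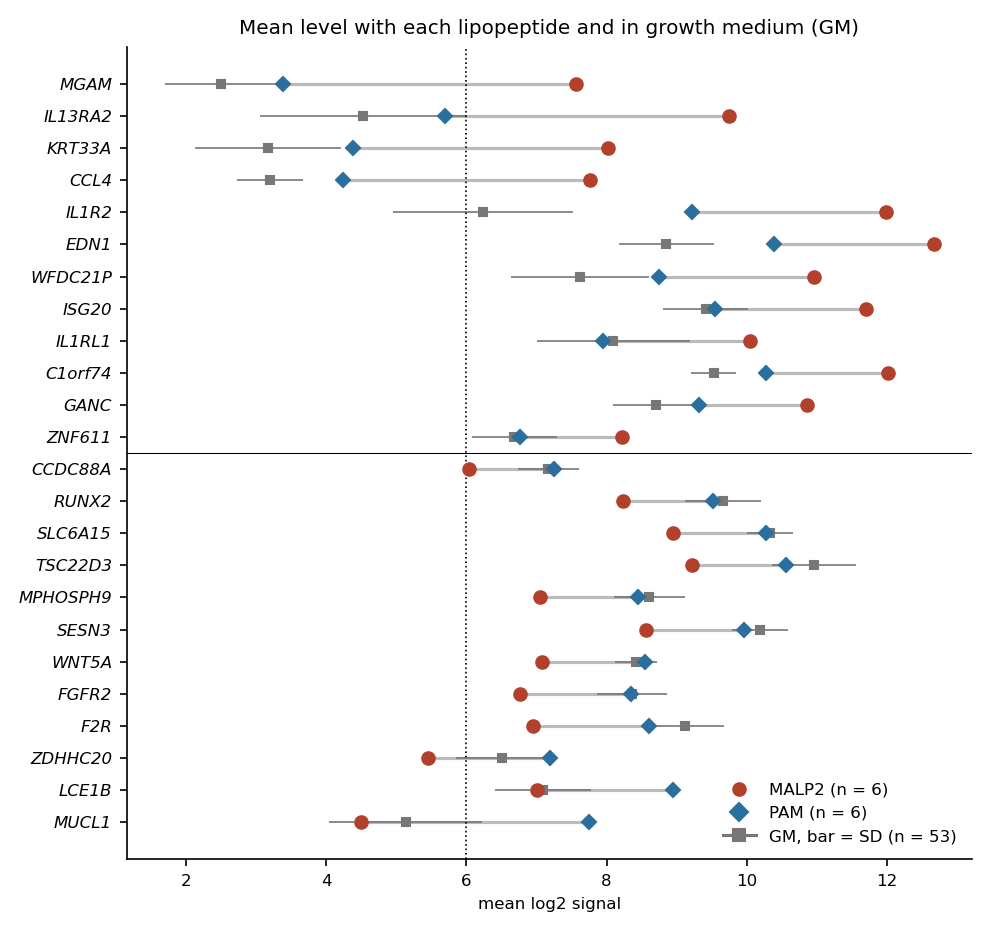
Mean log2 signal with MALP2 (circles), with Pam3CSK4 (PAM, diamonds) and in GM (squares, with the SD of 53 arrays) for the 24 genes of the plot of differences, above the line those higher with MALP2 and the dotted line marking the level of 6 under which a mean is called dim. Below the line, 10 of 12 genes were lower with MALP2 than in GM at an adjusted p under 0.05, and 2 (LCE1B and MUCL1) were higher with PAM than in GM.

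Of the genes for TLR2 and its partners, TLR2 itself was higher with MALP2 without passing the test. Its level was 10.55 to 11.31 (median 11.04) with MALP2 and 9.69 to 10.77 (median 10.20) with Pam3CSK4, a difference of 0.81 (95% interval 0.36 to 1.25, adjusted p = 0.12). Both were above GM (8.49 ± 0.37), with adjusted p = 4.4e-23 for MALP2 and 3.8e-13 for Pam3CSK4. The partner receptors TLR1 and TLR6, the orphan TLR10 and the lipid scavenger CD36 had dim means in both groups (4.51 to 5.99). The co-receptor CD14 (5.79 and 6.55) and the lipopolysaccharide binding protein LBP (6.43 and 6.24) were near that limit. None of these 6 passed the test, with differences of -0.28 (95% interval -1.20 to 0.63) for TLR1 and -0.50 (-1.36 to 0.35) for TLR6. Of 13 measured adaptors and kinases, 1 passed, where 0.209% of all probesets did. MYD88, the common adaptor, was 0.73 higher with MALP2 (SE 0.17, 1.65-fold, adjusted p = 0.038), with overlap between 11.85 to 13.05 and 11.22 to 11.98. MYD88 no longer passed in 7 of 12 fits that left out 1 array (adjusted p up to 0.27) and with the sets as a block (0.47). The kinase IRAK2 rose over GM with both and differed by 0.07 between them (95% interval -0.51 to 0.65).

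Few targets of TLR2 signalling passed the test between the lipopeptides, which 0.209% of all probesets passed. Of 21 chemokines measured, 1 (CCL4) passed the test, while 19 had a difference above 0 and the median difference was 0.80, beside 0.01 over all probesets. The neutrophil attractants CXCL1 (1.57, adjusted p = 0.26) and CXCL3 (1.51, adjusted p = 0.23) and the T cell attractant CCL5 (1.39, adjusted p = 0.20) came next. Against GM, 11 chemokines were higher with MALP2 and 9 with Pam3CSK4, where 3.28% and 1.31% of all probesets were. CCL20, which attracts dendritic cells and Th17 cells, rose strongly with both, at 12.30 ± 0.56 with MALP2 and 12.20 ± 0.41 with Pam3CSK4 (SD, n = 6) against 5.53 ± 1.92 in GM. The difference between the lipopeptides was 0.10 with a 95% interval of -1.65 to 1.85. That interval rests on a spread shared by all 8 groups. For CCL20 the SD in GM exceeded that with either lipopeptide. Of 27 cytokines none passed the test in either direction (3 in each direction at an unadjusted p under 0.05, beside 7.3% of all probesets over both directions). The alarmin IL33 was 1.65 higher with MALP2 (adjusted p = 0.48) and IL1A was 1.14 higher with Pam3CSK4 with no overlap (adjusted p = 0.62). TNF itself differed by 0.08 (95% interval -0.66 to 0.82).

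None of 17 NFκB subunits and feedback genes passed the test, with a median difference of 0.18. NFKB1 differed by 0.16 (95% interval -0.22 to 0.54), NFKB2 by -0.17 (-0.71 to 0.37) and RELB by -0.25 (-0.74 to 0.24), and each of these 3 rose over GM with both lipopeptides. TNFAIP3, the deubiquitinase A20 that restrains NFκB, was 1.08 higher with MALP2 with no overlap (adjusted p = 0.18). The study had picked a list of genes altered by PICs on these same arrays, which is not independent evidence of direction, and 17 of its members were measured. None passed the test between the lipopeptides, 14 had a difference above 0 and the median was 0.63. In 8 of the 17 every MALP2 array lay above every Pam3CSK4 array (1.29% of all probesets), and in 1 the reverse held (1.28% of all). The 8 included TNFAIP3, CXCL3, the transcriptional repressor PRDM1 (1.18, adjusted p = 0.27), the prostaglandin synthase PTGS2 (1.41, adjusted p = 0.66) and the activin subunit INHBA (0.97, adjusted p = 0.45). OLR1, a scavenger receptor for oxidized lipoprotein, stood at 13.42 and 12.95 (difference 0.47, 95% interval -0.46 to 1.40) after a rise from 8.25 in GM. Every MALP2 array of OLR1 lay above every Pam3CSK4 array. Its SD was 0.13 with each lipopeptide and 1.02 in GM, and the interval uses a spread shared by all groups.

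Interferon-stimulated genes stood apart by set more than by lipopeptide. Of 46 measured, 44 had a difference above 0 with a median of 0.70, but only ISG20 passed the test (0.209% of all probesets did). At an unadjusted p under 0.05 there were 9 (7.3% of all probesets). Their mean level was 12.5 to 12.7 with MALP2 and 11.2 to 11.4 with Pam3CSK4 in replicates 1 to 3, and 9.98 to 10.1 and 9.61 to 10.0 in replicates 4 to 6. So the groups were clear of each other in the first set (median difference 1.28, all 46 above 0) and overlapped in the second (0.29, with 30 of 46 above 0). Whether the difference itself changed between the sets was not tested. Members with larger differences were IFI27 (1.94, adjusted p = 0.66), IRF7, a transcription factor of the interferon response (1.38, adjusted p = 0.30), and IFITM2, which blocks virus entry (1.33, adjusted p = 0.29). RSAD2 (-0.24, 95% interval -1.93 to 1.45) and IFIT3 (-0.24, -1.76 to 1.28) leaned the other way. At an adjusted p under 0.05 against GM, 28 were higher with MALP2 and 8 with Pam3CSK4, beside 3.28% and 1.31% of all probesets. Of 11 interferons and their receptors, 1 passed, IFNGR1 as given above. IFNK, the interferon of keratinocytes, was 2.32 higher with MALP2 with no overlap (9.93 and 7.62, adjusted p = 0.42), and IFNB1 was dim in both groups (4.02 and 2.94).

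Cornified envelope genes and other markers of keratinocyte differentiation leaned toward Pam3CSK4. Of 29 measured, LCE1B alone passed the test, where 0.209% of all probesets did. A difference below 0 was seen in 20, and the median was -0.33, beside 0.01 over all probesets. Here too the sets differed: mean levels were 8.42 to 8.73 with MALP2 and 9.07 to 9.39 with Pam3CSK4 in replicates 1 to 3, and 11.0 to 11.1 and 11.5 to 11.6 in replicates 4 to 6. Within each set the Pam3CSK4 arrays lay above the MALP2 arrays. LORICRIN, the main protein of the envelope, was at 7.42 and 10.66 (difference -3.24, 95% interval -6.24 to -0.24, adjusted p = 0.62) and filaggrin (FLG), which bundles keratin, at 5.71 and 7.42 (-1.72, adjusted p = 0.60). Of 15 antimicrobial and acute phase genes none passed the test. SERPINA3, an acute phase protease inhibitor, came closest, with a mean of 8.38 ± 0.63 (SD, n = 6) with MALP2 and 11.02 ± 0.17 with Pam3CSK4, no overlap and a difference of -2.64 (95% interval -4.08 to -1.21, adjusted p = 0.10). Fitted on the 12 arrays alone or with the offset of 16, SERPINA3 passed (adjusted p = 0.0012 and 0.010). RNASE7, a ribonuclease that kills bacteria, differed by -1.27 (adjusted p = 0.22), with -0.19 in replicates 1 to 3 and -2.36 in replicates 4 to 6.

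In the remaining lists 3 members passed the test, namely EDN1 of 17 growth factors and vasoactive peptides, SPRY2 of 27 immediate early and MAPK feedback genes, and TIMP1 of 18 matrix proteases and plasminogen activators with their inhibitors. MMP10 and MMP9, matrix metalloproteinases, leaned in opposite directions, by 1.91 (adjusted p = 0.11) and -1.86 (adjusted p = 0.19), each with no overlap. JUN (-0.93, adjusted p = 0.17) and MYC (-0.57, adjusted p = 0.44) had every Pam3CSK4 array above every MALP2 array. None passed among 13 adhesion and costimulation genes, 14 apoptosis regulators, 13 prostaglandin and oxidant enzymes, 25 cell cycle genes, 16 genes of the unfolded protein response and ATF4, 10 of cholesterol synthesis and 9 reference genes. ICAM1, which binds leukocyte integrins, was 1.05 higher with Pam3CSK4 with no overlap (adjusted p = 0.28). Counted together with the 4 marker genes, 9 distinct members of 389 measured passed the test, 7 higher with MALP2 and 2 higher with Pam3CSK4. Over all probesets the shares were 0.0989% and 0.11%. All 4 marker genes are among the 7 and were chosen with earlier results of these data known, so nothing follows from an excess over these shares.

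The labelled cell type was checked on its markers. Of 9 measured markers of squamous epithelium none passed the test and their mean level was 13.4 to 14.1 in all 12 arrays, with KRT5 at 14.5 and 14.4 and KRT14 at 14.7 and 14.6 (MALP2 and Pam3CSK4). The 10 markers of leukocytes had mean levels of 5.34 to 6.03, with the pan-leukocyte gene PTPRC at 5.02 and 4.86, the 10 of fibroblasts and endothelium 5.52 to 6.49, and the 5 of melanocytes 5.63 to 6.69, none of them with a member past the threshold. Among these COL1A1 was bright, at 11.33 and 11.55.

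**Figure D4:**
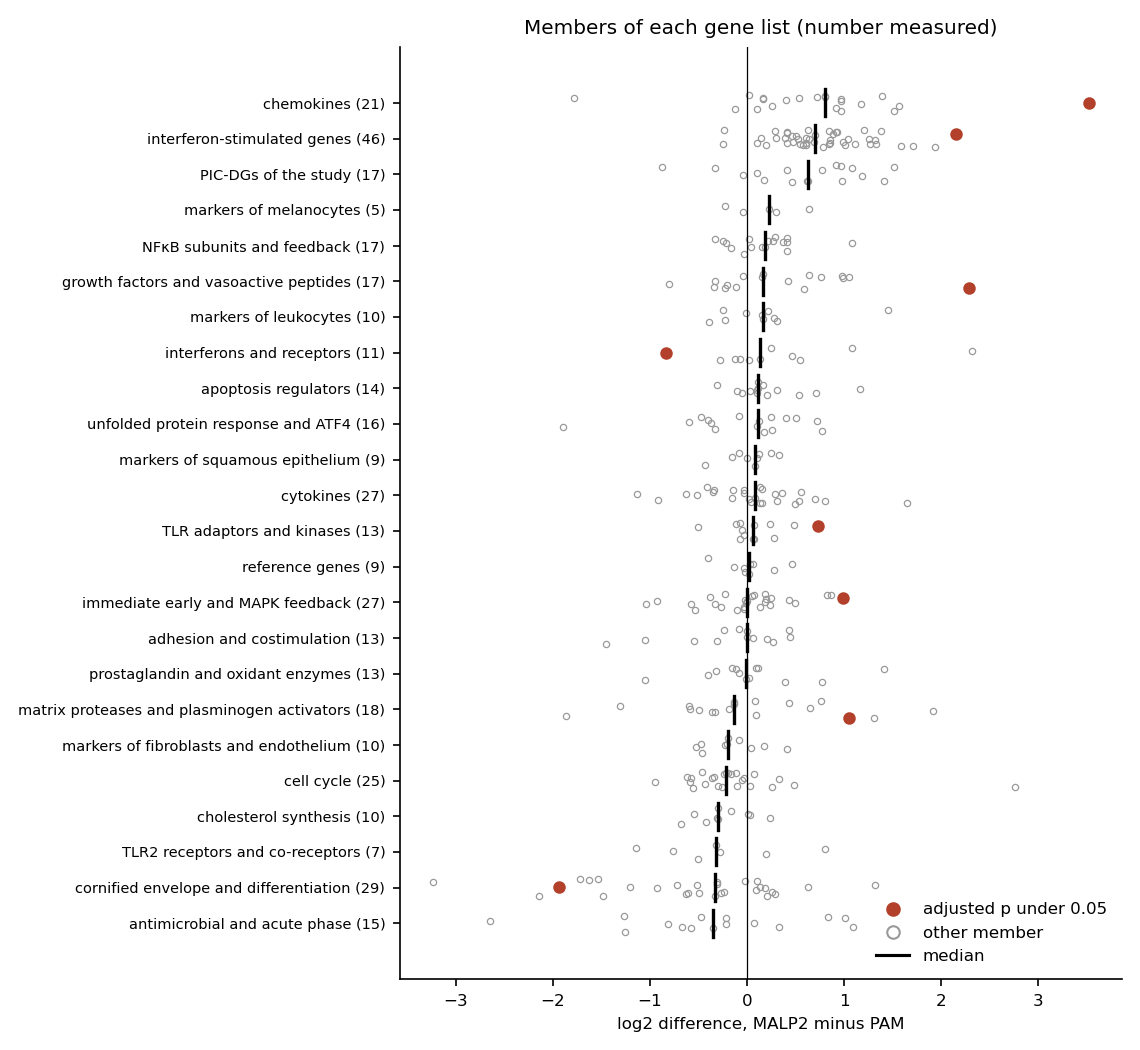
Difference in log2 signal, MALP2 minus Pam3CSK4 (PAM), of each measured member of 24 gene lists (number measured in brackets), with filled points for members at an adjusted p under 0.05 and a bar for the median of the list. Medians are highest for chemokines (0.80) and interferon-stimulated genes (0.70), and most lists are centred near 0.

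Levels in the other treatments give the range of the leading genes. CCL4 had means of 3.10 to 3.72 in the 5 groups that received TNF-α, the TLR7 ligand imiquimod, the detergent nonoxynol 9 (N9) or the inert thickeners hydroxyethyl cellulose or carboxymethyl cellulose, and MGAM 2.38 to 2.91, so for both the Pam3CSK4 mean came second after MALP2. EDN1 with imiquimod (12.39 ± 0.72, n = 6) was within the spread of MALP2 (12.66 ± 0.90), and with TNF-α (10.14 ± 0.32, n = 5) within that of Pam3CSK4 (10.38 ± 0.55). ISG20 was highest with MALP2 (11.70 ± 1.16), followed by imiquimod (10.59 ± 0.98) and TNF-α (10.51 ± 1.12), which differed from each other by less than their SD. IL1RL1 was far higher with imiquimod (13.51 ± 0.36) and N9 (13.05 ± 0.71, n = 9) than with MALP2 (10.04 ± 0.50). WNT5A was at 8.30 to 8.55 in every group but MALP2 (7.08 ± 0.17), and SLC6A15 at 9.76 to 10.62 in every group but MALP2 (8.95 ± 0.09). Imiquimod was at or above the level of MALP2 for IL13RA2 (10.18 ± 1.44 and 9.75 ± 0.34) and KRT33A (9.22 ± 0.40 and 8.01 ± 1.51), within the SD of one of the groups. For LCE1B (8.31) and MUCL1 (6.98) imiquimod was within 1 SD of Pam3CSK4 (8.94 ± 1.97 and 7.75 ± 2.72). IFNGR1 came to 12.17 ± 0.30 with TNF-α, next to Pam3CSK4 (12.59 ± 0.18). These levels are given as a description, and only the contrasts between MALP2, Pam3CSK4 and GM were tested.

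Calls rest on both sets of arrays together, which favours a shared direction. Among the called probesets the 2 sets differed in the size and not in the direction of the differences. Outside them directions did turn, as for the dim TLR10 (-1.33 and 0.69). They also turned for a bright probeset of the chemokine CXCL8, also called IL8 (-0.57 and 3.51). That probeset was at 12.15 with MALP2 and 10.68 with Pam3CSK4 (difference 1.47, adjusted p = 0.70). Differences in replicates 1 to 3 and 4 to 6 were close for WNT5A, IL1R2 (2.62 and 2.92) and ZNF611 (1.56 and 1.35). They were far apart for MUCL1 (-1.38 and -5.14), LCE1B, ZDHHC20, FGFR2 and C1orf74 (0.80 and 2.68). Of the 28 genes named by rule that passed the test, 9 kept it with the sets as a block (MGAM, KRT33A, CCL4, ISG20, C1orf74, TIMP1, IFNGR1, SLC6A15 and WNT5A), and 11 kept it in every fit that left out 1 array (the same 9 with EDN1 and SPRY2). With the arrays of each set averaged, which leaves 2 values per group, CCL4 and MGAM were the 2 probesets still called.

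**Figure D5:**
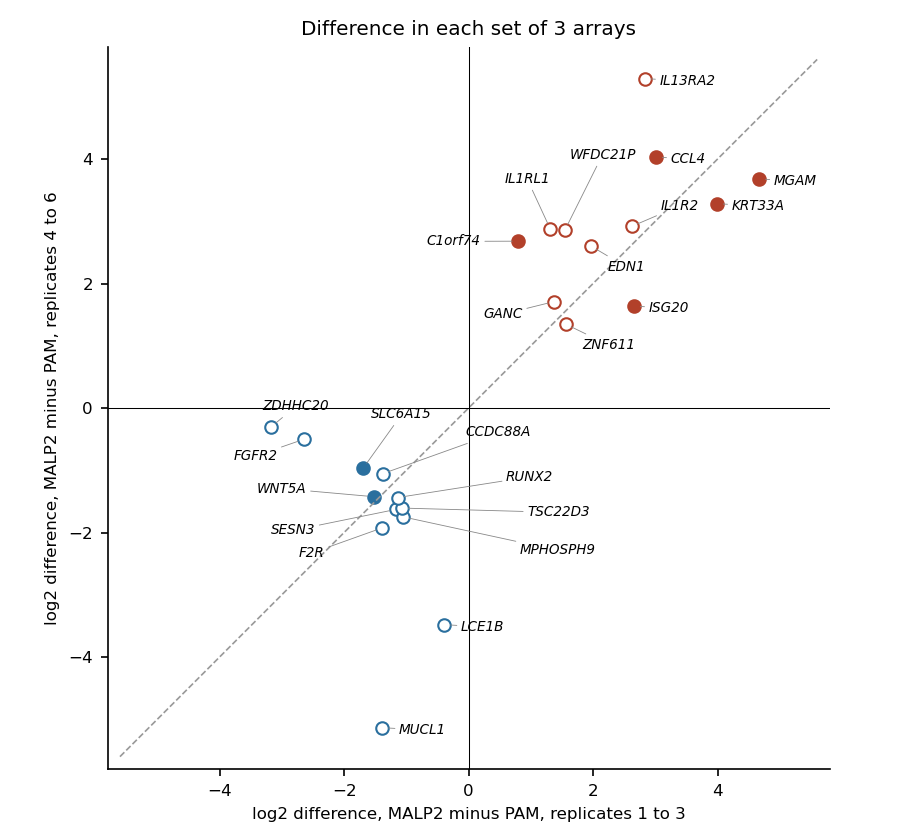
Difference in log2 signal, MALP2 minus Pam3CSK4 (PAM), in replicates 1 to 3 (horizontal) and in replicates 4 to 6 (vertical) for the 24 genes of the plot of differences, with the dashed line marking equal values and filled points for genes at an adjusted p under 0.05 with the sets as a block. All 24 genes, which were chosen on both sets together, lie in the quadrants of equal sign, with MUCL1 (-1.38 and -5.14) and ZDHHC20 (-3.17 and -0.30) far from the line.

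The 250 bases before 1 annotated start of each called gene were searched on both strands, and any other start of a gene was not searched. That start can lie inside the span annotated for the gene, as for ISG20, IL1RL1, MGAM and EDN1 (span chr6:12230516-12297194). The motifs were an AP-1 element (TGANTCA), the core of the interferon-stimulated response element (ISRE, GAAA and GAAA with any 2 bases between) and the NFκB consensus. They were chosen since TLR2 signals to AP-1 and NFκB and ISG20 belongs to the interferon response. Promoters were found for 20 of 25 genes in each direction. Of the 20 genes higher with MALP2, 5 held the AP-1 element (ISG20, IL1RL1, PLAUR, EMP1 and KLHL21), 3 the NFκB consensus (CFLAR, ALAS1 and BMP6) and 2 the ISRE core (ISG20 and CAPN3). Of the 20 genes higher with Pam3CSK4, 1 held the AP-1 element (RUNX2) and none the others. Over all 35116 promoters the shares were 6.57% for AP-1, 5.21% for NFκB and 3.02% for the ISRE core. These matches describe letters in the window and were not tested. The windows of 3 genes with a match, ISG20, IL1RL1 and PLAUR, and of 3 leading genes without one, EDN1, MGAM and WNT5A, are shown 5′ to 3′ on the strand of the gene, from RefSeq on GRCh38.p14, with each match in capitals. ISG20 (chr15:88638766-88639015, plus strand) has its ISRE core 69 bases and its AP-1 element 22 bases before the start. The AP-1 element of IL1RL1 (chr2:102337007-102337256, plus strand) begins 191 bases and that of PLAUR (chr19:43670170-43670419, minus strand) 186 bases before it. EDN1 lies at chr6:12287769-12288018 and MGAM at chr7:141995629-141995878 (plus strand), and WNT5A at chr3:55487307-55487556 (minus strand).
ISG20: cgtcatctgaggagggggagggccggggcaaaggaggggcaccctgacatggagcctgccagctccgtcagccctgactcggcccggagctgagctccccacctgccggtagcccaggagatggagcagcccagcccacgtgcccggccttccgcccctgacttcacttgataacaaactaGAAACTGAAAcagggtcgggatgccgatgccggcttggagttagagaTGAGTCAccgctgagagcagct
IL1RL1: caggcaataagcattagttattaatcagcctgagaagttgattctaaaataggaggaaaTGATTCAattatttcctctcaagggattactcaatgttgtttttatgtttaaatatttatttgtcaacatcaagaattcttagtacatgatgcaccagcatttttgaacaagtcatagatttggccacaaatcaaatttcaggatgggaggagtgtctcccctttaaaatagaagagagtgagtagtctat
PLAUR: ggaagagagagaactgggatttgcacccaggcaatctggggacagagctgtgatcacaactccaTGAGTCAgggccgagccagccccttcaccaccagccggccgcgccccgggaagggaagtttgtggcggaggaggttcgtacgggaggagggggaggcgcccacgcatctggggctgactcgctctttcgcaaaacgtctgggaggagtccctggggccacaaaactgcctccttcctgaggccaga
EDN1: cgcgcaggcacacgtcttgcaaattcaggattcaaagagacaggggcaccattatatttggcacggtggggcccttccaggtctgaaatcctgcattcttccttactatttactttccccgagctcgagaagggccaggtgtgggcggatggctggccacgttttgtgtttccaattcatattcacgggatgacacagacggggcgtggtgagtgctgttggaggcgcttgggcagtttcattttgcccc
MGAM: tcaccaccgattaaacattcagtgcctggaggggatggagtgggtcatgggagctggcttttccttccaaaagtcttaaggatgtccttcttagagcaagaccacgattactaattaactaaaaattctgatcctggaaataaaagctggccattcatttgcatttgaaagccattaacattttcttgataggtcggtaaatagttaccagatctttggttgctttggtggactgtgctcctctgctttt
WNT5A: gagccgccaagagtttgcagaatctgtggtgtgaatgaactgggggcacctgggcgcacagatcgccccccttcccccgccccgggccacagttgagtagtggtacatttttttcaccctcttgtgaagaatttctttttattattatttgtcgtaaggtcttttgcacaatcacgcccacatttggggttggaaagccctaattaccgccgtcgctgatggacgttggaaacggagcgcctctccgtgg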

How the data were processed

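RNA of Vk2/E6E7 cells was measured on 105 arrays. The deposited log2 signals, per the labels' processing notes, came from MAS5 in GCOS 1.3, while the methods of the study name Robust Multi-array Analysis in GeneSpring. Scanner files were not used here. Most values lie on fixed steps of the linear signal, as MAS5 gives them. Neither the sample titles nor the methods of the study mention pooling of replicates for the 12 arrays compared.

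Before the fit 2 arrays were left out, TNF-α replicate 6, which equals the mean of replicates 1 to 3, and GM replicate 52, which correlates with no other array (r at most 0.05, others at least 0.84). The other 103 were quantile normalized and fitted with 1 mean for each of 8 groups in limma 3.58.1 (R 4.3.3), without a replicate block, and p-values were adjusted by the Benjamini-Hochberg method over 54613 probesets. Array medians before normalization were 6.34 to 6.66 in the 12 arrays. The median half-width of the 95% interval of a difference was 0.77, and 0.47 for probesets with a mean of at least 7. This width depends on the number of arrays and on the spread shared by all 8 groups. Of the 103 arrays behind that spread 53 were GM.

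Genes were named from GEO's platform annotation, updated through RefSeq: 41091 probesets name 1 gene, 1801 several and 11721 none. Lists use the brightest probeset of a gene. The genes named are the 12 with the largest differences in each direction (adjusted p under 0.05, mean at least 7, smallest p per gene), CCL4, ISG20, MGAM and EDN1, the TLR2 receptors, the 3 members of each other list with the smallest p, and GAPDH and ACTB, and any other gene named was chosen after its values were seen. Members and lists were chosen with earlier results of these data known. The fit was tested on simulated data. Alternatives were other normalizations, filters, offsets, arrays, blocks and the methods' analysis of variance, which tests all groups and not this pair.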

Additional observations from a re-analysis of the deposited data

Results flagged for a closer look

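Of 192 gene and group pairs checked over 96 genes, 11 (5.73%) held 1 array that stood far from the other 5 of its group, where chance gives about 1 in 20. The measure is the gap from that array to its nearest neighbour over the whole range of the group, and Dixon's critical value for 6 values is the limit. In the MALP2 group, LCE1B was low in replicate 1 (6.07, the others 6.94 to 7.42, ratio 0.643), SESN2, a sestrin, in replicate 4 (6.00, the others 7.62 to 8.45, ratio 0.662) and TSC22D3 in replicate 5 (8.90, the others 9.23 to 9.34, ratio 0.759). High arrays of that group were replicate 4 for SLC6A15 (9.11, the others 8.89 to 8.97, ratio 0.651) and replicate 6 for the survival gene BCL2A1 (12.64, the others 12.26 to 12.32, ratio 0.83) and for MUCL1 (6.13, the others 3.66 to 4.51, ratio 0.654).

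In the Pam3CSK4 group, the melanocyte gene TYR was low in replicate 2 (5.10, the others 6.55 to 7.22, ratio 0.687) and the sterol enzyme SC5D in replicate 3 (11.58, the others 11.71 to 11.75, ratio 0.74). Replicate 5 was low for GAPDH (14.18, the others 14.27 to 14.31, ratio 0.709) and for the adhesion gene SELE (3.16, the others 4.86 to 5.66, ratio 0.68), and high for CXCL3 (9.45, the others 9.03 to 9.18, ratio 0.645). SLC6A15, TSC22D3, LCE1B and MUCL1 are the only ones of these genes that passed the test between the lipopeptides.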

How the results depend on the processing

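The count of 64 called probesets became 169 with the 12 arrays fitted alone, 24 with all arrays of the series, 14 with the sets of 3 arrays as a random block, 170 in replicates 1 to 3 alone (40 higher with MALP2, 130 with Pam3CSK4), 26 in replicates 4 to 6 alone and 877 in the methods' analysis of variance, which tests all groups. With 2 settings chosen after seeing the data it was 418 (sets as a fixed block) and 2 (arrays of each set averaged). Leaving out 1 array gave 34 to 68, with 34 without Pam3CSK4 replicate 5, 40 without MALP2 replicate 1 and 41 without MALP2 replicate 2. The split of calls was 34 higher with MALP2 and 46 with Pam3CSK4 without normalization, 36 and 51 for levels of at least 6, and 47 and 38 with the offset of 16. With the replicate block the count was 76, of which 23 were among the 64 (48 higher with MALP2, 28 with Pam3CSK4). Pairs of the same number correlated at 0.05 to 0.13, with 2 of 6 over 0.1, so the numbers were not taken to pair the samples, although 5 of 6 MALP2 arrays correlated best with the Pam3CSK4 array of their number.

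Against GM, 1200 calls for MALP2 became 661 with the sets as a random block and 189 with sets averaged, and 400 for Pam3CSK4 became 156 and 25, 260 with all arrays and 841 in the analysis of variance. The split for Pam3CSK4 against GM, 321 higher and 79 lower, was 315 and 134 without normalization and 312 and 33 with the offset. The 9 list members past the threshold became 25 with the 12 arrays alone, 2 with all arrays, 5 with the sets as a random block, 16 with the replicate block, 256 in the analysis of variance, 83 with the sets as a fixed block and 2 with sets averaged. Of the 28 named genes that passed the test, all 28 did without normalization and with the offset, 19 with the 12 arrays alone and 12 with the replicate block. In replicates 1 to 3 alone 10 of them passed, and in replicates 4 to 6 alone 9. With the sets as a fixed block that both groups share, 25 of the 28 passed. None of these 28 changed sign under the settings tried, but the split of calls, 30 higher with MALP2 and 34 with Pam3CSK4, was not stable. It turned toward MALP2 with the offset, with the replicate block and with the 12 arrays alone (89 and 80). The same held with the sets as a random block (9 and 5) or fixed block (214 and 204) and with sets averaged (2 and 0). It also held in replicates 4 to 6 alone (15 and 11) and without MALP2 replicate 2 (24 and 17). In the other settings it was even or leaned to Pam3CSK4. The genes SERPINA3 (adjusted p = 0.0012, and 0.033 with the replicate block), TNFAIP3 (0.0016 and 0.045) and ICAM1 (0.0044 and 0.046) did not pass in the comparison reported and did with the 12 arrays alone and with the replicate block. The causes were not tested. Dim probesets, such as CCL4 and MGAM with Pam3CSK4, have levels that depend on the background of the array.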

Other observations

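Further genes that passed the test between the lipopeptides, named after their values were seen, belong to no list. Higher with Pam3CSK4 were PDGFC, a growth factor of the PDGF family, at 10.12 to 10.33 with MALP2 and 11.06 to 11.58 with Pam3CSK4 (difference -1.09, adjusted p = 8.0e-05, in 1 of 2 probesets), and OVOL2, a transcription factor that maintains the epithelial state, at 8.42 to 9.33 and 9.83 to 10.08 (-0.998, adjusted p = 1.7e-06). NFE2L2, the oxidative stress regulator NRF2, was at 11.58 to 12.28 and 12.62 to 12.97 (-0.90, adjusted p = 0.0048). In each of these 3 genes the groups did not overlap, MALP2 was below GM, Pam3CSK4 did not pass the test against GM, and the call held with the sets of 3 arrays as a block. NAMPT, the rate-limiting enzyme of NAD salvage, was higher with Pam3CSK4 than with MALP2 in 2 of 4 probesets (-0.74 and -1.15) and above GM with Pam3CSK4 in both, but lost the call with the block (adjusted p = 0.37 and 0.96).

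Higher with MALP2 were CGN, the tight junction protein cingulin, at 9.31 to 10.39 against 8.98 to 9.09 (0.83, adjusted p = 0.00017, and 0.010 with the block), and CFLAR, the caspase-8 inhibitor FLIP, in 2 of 14 probesets (1.01 and 0.76, adjusted p = 0.017 and 0.020, and 0.35 and 0.64 with the block). DHRS9, a retinol dehydrogenase, differed by 1.29 and 1.18 in 2 of 3 probesets (adjusted p = 0.0056 and 0.025, and 0.24 and 0.43 with the block).

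Among genes that rose most over GM with both lipopeptides, BCL2A1, an inhibitor of apoptosis, was at 12.34 ± 0.15 (SD, n = 6) with MALP2 and 11.18 ± 0.32 with Pam3CSK4, against 6.47 ± 0.84 in GM. Its difference of 1.16 between the lipopeptides did not pass the test although the arrays did not overlap (95% interval 0.23 to 2.09, adjusted p = 0.50). With the 12 arrays fitted alone the adjusted p of BCL2A1 was 0.0058, and with the replicate block it was 0.067. IL36G, an interleukin of the IL-36 family, was at 11.89 ± 1.62 and 11.19 ± 0.88 (difference 0.70, 95% interval -0.38 to 1.78) and SPRR2G, a small proline-rich protein of the cornified envelope, at 11.57 ± 2.17 and 11.74 ± 2.26 (-0.16, 95% interval -2.69 to 2.36).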
